A study of Mus musculus with 6 samples.

Results

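The DNA methylation and demethylation enzymes of mouse embryonic stem cells (mESCs) are described here in cells that carry extra Rbbp4 or Rbbp7. The 9 genes were chosen by name, by a rule that uses no measured value, but with earlier results of these data known. The set holds the methyltransferases Dnmt1, Dnmt3a and Dnmt3b, the methyltransferase partner Dnmt3l and the maintenance factor Uhrf1. It also holds the oxidases Tet1, Tet2 and Tet3 and the glycosylase Tdg. These genes are 9 of the 55401 genes in each table. All 9 are among the 14156 genes with a mean level high enough to be tested. Poly(A) RNA was sequenced from 46C, a line of mESCs, in 3 groups of 2 libraries. The control cells expressed the biotin tag alone, and the groups named Rbbp4 OE and Rbbp7 OE expressed Rbbp4 or Rbbp7 with that tag. By the study's methods, cells of all groups first received a BirA-V5 lentivirus under blasticidin selection and then a pSin-Flag-Avitag lentivirus, empty or with the Rbbp4 or Rbbp7 cDNA, under puromycin selection, so each group is a selected infected population. All were grown on gelatin with serum, LIF and the inhibitors Chir99021 and PD0325901. The labels do not say whether the 2 libraries of a group came from separate cultures, so p-values measure the spread between these libraries, which may be technical.

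Methyl groups on the cytosines of CpG dinucleotides are copied to the new DNA strand after replication by DNMT1, which UHRF1 recruits to hemimethylated sites. DNMT3A and DNMT3B add methyl groups to unmethylated DNA, with DNMT3L as a partner that has no catalytic activity of its own. TET enzymes oxidise methylcytosine, and TDG excises the further oxidised bases so that base excision repair can restore cytosine. mESCs grown with the inhibitors are known for low DNA methylation. RBBP4 and RBBP7 are related histone-binding proteins that are shared by several chromatin complexes, and the comparisons here ask whether more of either changed the levels of this enzyme set.

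The tagged genes followed their labels. Rbbp4 was at 146 and 147 TPM (a transcript's length-scaled share of all transcripts, on a fixed total) in the control libraries, at 270.0 and 271 TPM for Rbbp4 OE and only 144 and 143 TPM for Rbbp7 OE. Rbbp7 was at 239 and 237 TPM in the control libraries, at 208 and 217 TPM for Rbbp4 OE and at 725 and 748 TPM for Rbbp7 OE. These values do not tell apart the introduced and the endogenous transcripts. The summed level of 7 mESC markers, which include Pou5f1, Sox2 and Nanog, was 3360 to 3600 TPM in all 6 libraries, but its members did not move together. Pou5f1, the most abundant, was at 1577 and 1455 TPM in the control libraries and at 1816 and 1781 TPM for Rbbp4 OE, whereas Nanog, Esrrb, Klf4 and Tfcp2l1 were lower in both Rbbp4 OE libraries than in the other 4 (Klf4 at 178 and 239 TPM in the control libraries and 160 and 141 TPM for Rbbp4 OE). Formative or primed epiblast markers summed to 4.71 and 5.35 TPM in the control libraries and to 7.25 to 9.04 TPM in the other 4. Dnmt3b and Dnmt3l were also higher in those 4 libraries. Only 2 of these 6 markers reached 1 TPM in all libraries. The sums of the primitive endoderm (0.83 to 2.46 TPM), neural (5.41 to 7.37 TPM) and fibroblast markers (4.48 to 15.7 TPM) were low. Lum was listed at 0 throughout. Primitive endoderm markers, too, summed to less in the control libraries (0.83 and 0.84 TPM) than in the other 4 (1.1 TPM or more). So did fibroblast markers (4.48 and 5.59 TPM, against 8.75 TPM or more), but neural markers did not. Single genes or libraries carried much of the primitive endoderm and fibroblast sums. Foxa2 was at 1.86 TPM in Rbbp4 OE replicate 1 and 0.67 TPM in Rbbp7 OE replicate 2, and at 0.13 TPM or less elsewhere. Col3a1 was at 6.39 TPM in Rbbp7 OE replicate 1 and at 0.06 TPM or less elsewhere. Thy1 was at 4.13 and 5.02 TPM in the control libraries and at 7.01 to 10.8 TPM in the others. Trophoblast markers summed to 46.0 to 67.4 TPM, mostly Tfap2c and Krt8, and their sum was 46.0 and 49.2 TPM in the control libraries and 59.7 TPM or more in the other 4, while Cdx2 (5.49 and 4.88 TPM in the control libraries, 2.93 to 3.70 TPM in the others) and Gata3 (1.29 and 0.83 TPM, against 0.39 to 0.51 TPM) were lower in those 4. The part of these markers in the results was not tested. In bulk samples, fewer cells of a type and less RNA per cell cannot be told apart.

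The maintenance pair stood at the top of the set. Over the 6 libraries, Uhrf1 ranged from 281 to 322 TPM, which put its mean above 96.6% of the tested genes, and Dnmt1 ranged from 104 to 120.5 TPM, above 91.1% of them. Dnmt3l came next at 41.8 to 58.0 TPM, and its lowest library was above the highest of Dnmt3b. Dnmt3b (30.1 to 37.0 TPM), Tet1 (27.6 to 40.6 TPM) and Tet2 (25.2 to 40.4 TPM) had overlapping ranges. Tdg (8.84 to 18.6 TPM) and Dnmt3a (6.61 to 10.4 TPM) overlapped in the same way, with Tdg the higher of the pair in 5 of 6 libraries. Tet3 was the lowest at 0.64 to 0.98 TPM, above only 7.7% of the tested genes. Within the de novo pair, Dnmt3b was 3.56 to 5.14 times as high as Dnmt3a in every library. Dnmt3c, a further de novo enzyme known from the male germline, did not exceed 0.13 TPM.

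**Figure D1:**
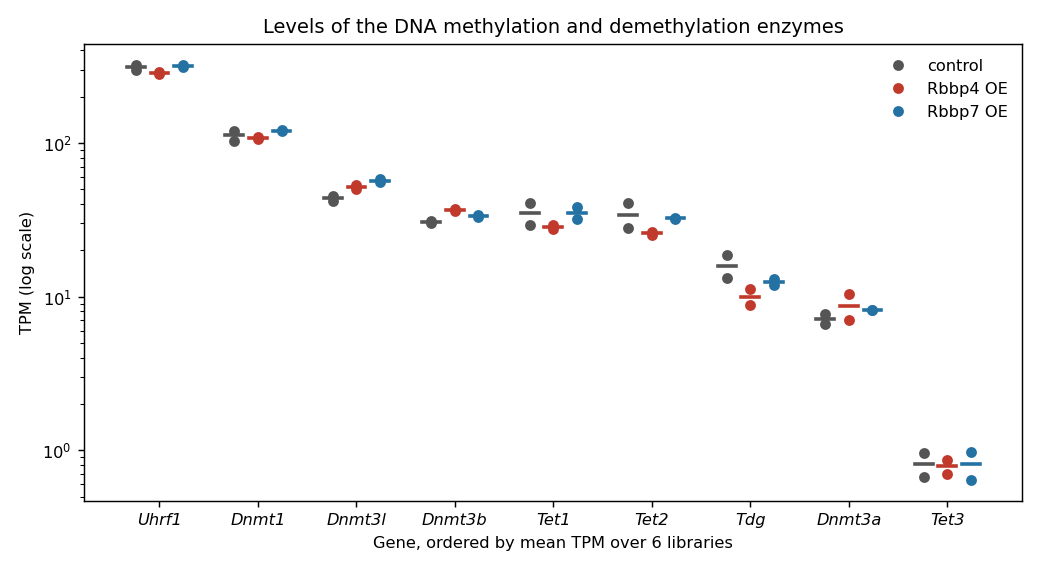
TPM on a log axis for the 9 enzymes, ordered by their mean over 6 libraries; points are libraries and bars are the means of 2 libraries per group. Uhrf1 lies near 300 TPM in every group and Tet3 below 1 TPM, while the 3 groups lie close together for each gene.

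The promoters of the set were mostly rich in CpG, the dinucleotide on which the enzymes themselves act. RefSeq (GRCm38.p6) gave 16 start-site windows of 300 bases for the 9 genes among 32851 windows in all. The median window of the set held 20 CpG, against 7 over all windows, and the set ranged from 2 in a Dnmt1 window to 57 in the Tet2 window. Of the 16 windows, 12 held the GC box GGGCGG on either strand, against 35.7% of all windows. The background takes all windows, whether or not the gene was tested, and no share over tested genes alone is given. Several windows belong to the same gene, and the Dnmt3a windows at chr12:3806730-3807029 and chr12:3806910-3807209 share bases. The E2F letters TTTCCCGC, TTTGGCGC, TTTCGCGC or TTTGCCGC occurred on either strand in 1 window each of Dnmt1 and Uhrf1 (2.26% of all windows), the letters TTTGAA in 1 window each of Dnmt3b and Dnmt1 (17.9%), and CACGTG in 1 window each of Dnmt3l, Tdg and Dnmt3a (7.15%). A match is a description of letters and not a site. The bases before the first annotated exon are shown for Dnmt3b, Dnmt3l and Tdg, the 3 members with the smallest p-values in Rbbp4 OE, to show the range from a CpG-rich to a CpG-poor start. CpG is in capitals, and the sequences are on the plus strand of GRCm38.p6 at chr2:153649199-153649448 (Dnmt3b, 21 CpG), chr10:78049592-78049841 (the second of 3 Dnmt3l windows, 4 CpG) and chr10:82629588-82629827 (Tdg, 18 CpG).
Dnmt3b: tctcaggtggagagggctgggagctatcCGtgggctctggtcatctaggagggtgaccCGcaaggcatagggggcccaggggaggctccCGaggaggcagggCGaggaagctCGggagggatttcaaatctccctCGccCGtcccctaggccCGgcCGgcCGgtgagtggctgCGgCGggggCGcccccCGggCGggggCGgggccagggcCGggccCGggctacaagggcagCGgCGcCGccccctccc
Dnmt3l: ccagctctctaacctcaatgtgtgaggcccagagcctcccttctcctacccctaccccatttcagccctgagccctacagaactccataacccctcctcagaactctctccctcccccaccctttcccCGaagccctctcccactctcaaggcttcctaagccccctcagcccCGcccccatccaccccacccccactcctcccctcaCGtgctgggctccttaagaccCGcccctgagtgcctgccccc
Tdg: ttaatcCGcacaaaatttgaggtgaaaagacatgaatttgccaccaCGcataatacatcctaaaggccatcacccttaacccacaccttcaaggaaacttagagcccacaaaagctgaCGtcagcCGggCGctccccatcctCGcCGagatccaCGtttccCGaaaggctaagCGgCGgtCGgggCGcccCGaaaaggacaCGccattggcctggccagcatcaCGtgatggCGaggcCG

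No enzyme of the set passed the test in any comparison. The test was limma-trend on log2(TPM + 1) with Benjamini-Hochberg adjustment over all 14156 genes. Genes were called at the study's thresholds, an adjusted p under 0.01 with a fold over 2. Genes with an adjusted p under 0.05 were counted as passing without a fold minimum. In later paragraphs a call of a single gene or of list genes means passing in this sense, not the study's thresholds. Of the 9 members, 0 were called (background 0.516% of all genes) and 0 passed (background 11.4%) in Rbbp4 OE against control. For Rbbp7 OE against control, 0 were called (background 0.0353%) and 0 passed (background 0.487%). The direct comparison of Rbbp4 OE with Rbbp7 OE had 0 called (background 0.0494%) and 0 passed (background 0.304%). At an unadjusted limma p under 0.05 there were 3 members in Rbbp4 OE (Dnmt3b, Dnmt3l and Tdg; 29.6% of all genes), 1 in Rbbp7 OE (Dnmt3l; 15.4%) and 1 in the direct comparison (Uhrf1; 19% of all genes), so these counts stand close to the background. The median log2 fold change of the 9 members was -0.05 for Rbbp4 OE against control, 0.03 for Rbbp7 OE against control and -0.15 for the direct comparison, beside -0.08, -0.004 and -0.08 over all tested genes. The comparisons with control share their 2 control libraries. The 95% intervals bound the differences: for Uhrf1 and Dnmt1 they lay within 0.353 log2 units of 0 in all 3 comparisons, while for Tdg in Rbbp4 OE the interval reached -1.07.

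**Figure D2:**
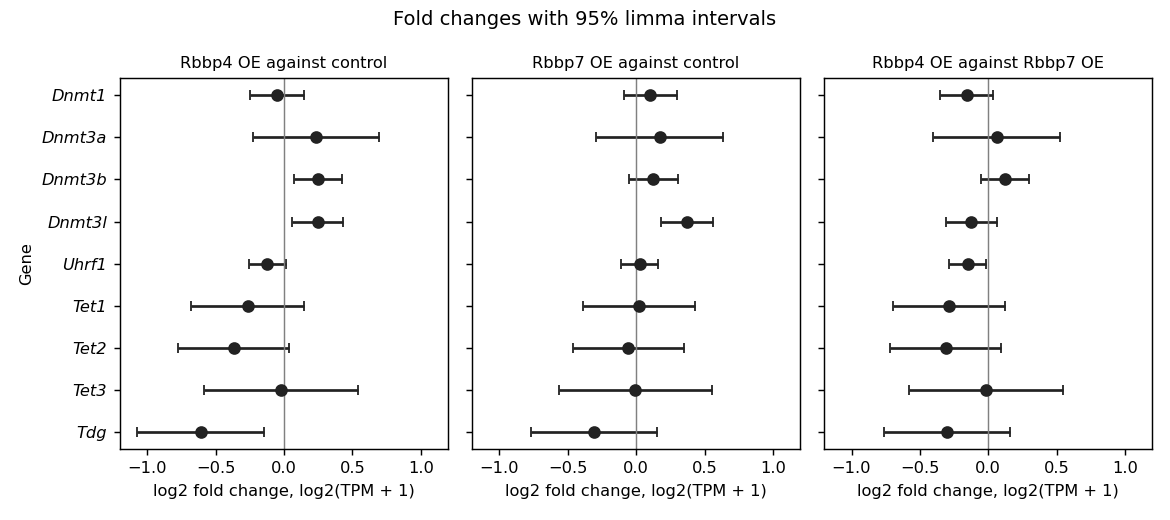
log2 fold change of each enzyme on the log2(TPM + 1) scale in the 3 comparisons, with points for limma estimates from 2 libraries per group and bars for 95% intervals. The intervals of Dnmt3b, Dnmt3l and Tdg in Rbbp4 OE do not include 0, yet no adjusted p is under 0.05.

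Dnmt1 and Uhrf1, which maintain methylation through replication, differed little between the groups. Dnmt1 (chr9:20907209-20959888, minus strand, GRCm38) was at 104 and 120.1 TPM in the control libraries, 109 and 106 TPM for Rbbp4 OE, and 120.5 and 119.6 TPM for Rbbp7 OE. The control libraries span nearly all of this range, and the log2 fold change was -0.05 (SE 0.08, n = 2 per group) in Rbbp4 OE and 0.11 (SE 0.08, n = 2 per group) in Rbbp7 OE. Uhrf1 (chr17:56303321-56323486, plus strand) was at 299 and 322 TPM in the control libraries, 289 and 281 TPM for Rbbp4 OE, and 311 and 322 TPM for Rbbp7 OE. Both Rbbp4 OE libraries were below the other 4, by a small margin. The log2 difference of Uhrf1 between Rbbp4 OE and Rbbp7 OE was -0.15 (SE 0.055, limma adjusted p = 0.23, n = 2 per group). Between Rbbp4 OE and control it was -0.12 (limma adjusted p = 0.207). After median-of-ratios scaling of the libraries these differences were -0.051 and -0.015. After a correction for transcript length, added after seeing the data, they were -0.054 and -0.024. The ratio of Uhrf1 to Dnmt1 TPM was 2.58 to 2.88 in the 6 libraries. A processed pseudogene, Gm5648, matches Uhrf1 at 98.3% identity but was at 0.19 to 0.55 TPM.

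Among the de novo enzymes, Dnmt3b and its partner Dnmt3l were higher in every overexpression library than in either control library, without passing the test. Dnmt3b (chr2:153649450-153687730, plus strand) was at 30.1 and 31.0 TPM in the control libraries, 37.0 and 36.0 TPM for Rbbp4 OE, and 32.9 and 34.0 TPM for Rbbp7 OE. The 3 groups did not overlap, with Rbbp7 OE in between. Of all tested genes, 57.9% did not overlap between Rbbp4 OE and control and 44.5% between Rbbp7 OE and control. The share was 54.7% between the overexpression groups. In Rbbp4 OE the fold was 1.19 (95% interval 1.05 to 1.34, limma adjusted p = 0.0791, n = 2 per group), and in Rbbp7 OE it was 1.09 (95% interval 0.965 to 1.24, limma adjusted p = 0.471). After median-of-ratios scaling of the libraries the adjusted p in Rbbp4 OE was 0.0345 (log2 fold change 0.35, against a median of 0.01 over all genes), and after a correction for transcript length, added after seeing the data, it was 0.0331 (log2 fold change 0.39), both from limma.

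Dnmt3l (chr10:78041947-78063622, plus strand) was at 45.3 and 41.8 TPM in the control libraries, 53.4 and 50.3 TPM for Rbbp4 OE, and 58.0 and 55.2 TPM for Rbbp7 OE. Here Rbbp7 OE was the highest group, and again the 3 groups did not overlap. The fold over control was 1.29 in Rbbp7 OE (95% interval 1.14 to 1.47, limma adjusted p = 0.124, n = 2 per group) and 1.19 in Rbbp4 OE (95% interval 1.04 to 1.35, limma adjusted p = 0.0902). Aire lies on the opposite strand over part of the locus and was at 0.47 to 1.96 TPM. The ratio of Dnmt3l to Dnmt3b was 1.50 and 1.35 in the control libraries, 1.44 and 1.40 for Rbbp4 OE, and 1.77 and 1.62 for Rbbp7 OE.

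Dnmt3a (chr12:3806007-3914443, plus strand) varied most between the Rbbp4 OE libraries. It was at 6.61 and 7.66 TPM in the control libraries, 10.4 and 7.01 TPM for Rbbp4 OE, and 8.18 and 8.13 TPM for Rbbp7 OE. A single Rbbp4 OE library, replicate 1, was the highest, while replicate 2 of the same group lay within the control range. The 2 differed by 0.51 log2 units, a gap that 9.85% of the tested genes matched or exceeded in that group, and the fold of 1.18 in Rbbp4 OE had a 95% interval of 0.853 to 1.62 (limma adjusted p = 0.459, n = 2 per group). Without that replicate the log2 fold change was -0.02, with the opposite sign to the value of 0.23 from all libraries.

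The TET oxidases gave lower values in Rbbp4 OE than in Rbbp7 OE for Tet1 and Tet2, while the control libraries were spread over both. Tet1 (chr10:62804570-62908996, minus strand) was at 29.1 and 40.6 TPM in the control libraries, 29.3 and 27.6 TPM for Rbbp4 OE, and 31.9 and 38.1 TPM for Rbbp7 OE. Tet2 (chr3:133463679-133545139, minus strand) was at 27.8 and 40.4 TPM in the control libraries, 25.2 and 26.3 TPM for Rbbp4 OE, and 31.9 and 32.6 TPM for Rbbp7 OE. For both genes control replicate 2 was the highest library of all, and control replicate 1 was close to the Rbbp4 OE libraries. The fold in Rbbp4 OE against control was 0.832 for Tet1 (95% interval 0.626 to 1.11, limma adjusted p = 0.345, n = 2 per group) and 0.775 for Tet2 (95% interval 0.584 to 1.03, limma adjusted p = 0.207). Both Rbbp4 OE libraries of Tet2 were below the other 4. Without control replicate 1, Tet2 passed at -0.63 log2 units (limma adjusted p = 0.0277), and without control replicate 2 the value was -0.11. Against Rbbp7 OE the log2 difference was -0.29 for Tet1 (SE 0.168, limma adjusted p = 0.402, n = 2 per group). For Tet2 it was -0.31 (SE 0.167, limma adjusted p = 0.365). With median-of-ratios scaling these differences were -0.189 for Tet1 and -0.216 for Tet2. With the length correction they were -0.115 and -0.108 (limma adjusted p = 0.682 and 0.668).

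Tet3 (chr6:83362373-83459084, minus strand) was at 0.67 and 0.96 TPM in the control libraries, 0.87 and 0.70 TPM for Rbbp4 OE, and 0.98 and 0.64 TPM for Rbbp7 OE. All groups overlapped, and at this level the log2(TPM + 1) scale understates a change. The summed TPM of the 3 TET genes was 57.7 and 82.0 in the control libraries, 55.4 and 54.7 for Rbbp4 OE, and 64.8 and 71.4 for Rbbp7 OE. The ratio of this sum to the sum of Dnmt3a and Dnmt3b was 1.57 and 2.12 in the control libraries, 1.17 and 1.27 for Rbbp4 OE, and 1.58 and 1.69 for Rbbp7 OE, so both Rbbp4 OE libraries were below the other 4. These sums and ratios were chosen after the values were seen and were not tested.

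Tdg had the largest log2 fold change of the set, but its level is uncertain because a near-identical copy was measured at a higher level than the gene. Tdg (chr10:82629828-82650799, plus strand) was at 13.2 and 18.6 TPM in the control libraries, 8.84 and 11.2 TPM for Rbbp4 OE, and 13.1 and 11.9 TPM for Rbbp7 OE. Both Rbbp4 OE libraries were below the other 4, and the Rbbp7 OE libraries were just under the lower control. The log2 fold change was -0.61 in Rbbp4 OE (SE 0.19, limma adjusted p = 0.0898, n = 2 per group) and -0.31 in Rbbp7 OE (SE 0.19, limma adjusted p = 0.496, n = 2 per group). The copy is Gm9855, a processed pseudogene at chr10:42054113-42055306 (minus strand), whose 1194-nt transcript aligned to Tdg over its full length at 99.2% identity, and it was singled out after its values were seen. Gm9855 was at 28.4 and 35.2 TPM in the control libraries, 21.2 and 21.4 TPM for Rbbp4 OE, and 31.2 and 31.4 TPM for Rbbp7 OE.

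RSEM divides reads that fit both loci by a model, so a change of Tdg and one of Gm9855 cannot be told apart with certainty. Gm9855 fell by 0.55 on the log2 scale in Rbbp4 OE (SE 0.114, limma adjusted p = 0.0346, n = 2 per group), whereas Rbbp7 OE gave -0.01 (limma adjusted p = 0.976). The call for Gm9855 held without control replicate 1 (limma adjusted p = 0.0263) and was lost in each of the 5 other fits that left out a library, with log2 fold changes of -0.40 to -0.56 and limma adjusted p from 0.0745 to 0.191. It was also lost without a filter on low genes (limma adjusted p = 0.0799). The summed TPM of Tdg and Gm9855 was 41.6 and 53.9 in the control libraries, 30.0 and 32.5 for Rbbp4 OE, and 44.3 and 43.3 for Rbbp7 OE, so both Rbbp4 OE libraries had the lowest sums. A further copy, Tdg-ps, was at 1.12 to 1.88 TPM.

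**Figure D3:**
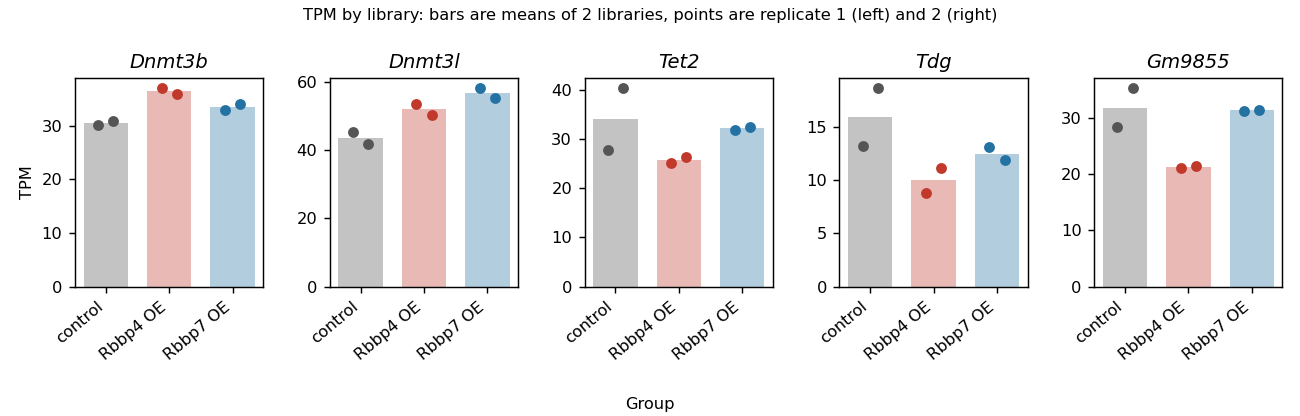
TPM of Dnmt3b, Dnmt3l, Tet2, Tdg and the Tdg copy Gm9855, each on its own axis from 0; bars are means of 2 libraries per group and points are the libraries. Dnmt3b and Dnmt3l separate the groups by a small margin, whereas the control points of Tet2 and Tdg lie far apart.

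For Tet1, Tet2 and Tdg the control libraries themselves stood far apart. Control replicate 2 exceeded control replicate 1 by 0.47 log2 units for Tet1, 0.52 for Tet2 and 0.47 for Tdg, and 13.2%, 10.4% and 13.0% of the tested genes differed by as much between the same libraries. This difference moved with transcript length. Its median over protein-coding genes was -0.04 for those whose longest transcript is under 2000 nt, 0.08 from there to 4000 nt, 0.18 from there to 8000 nt and 0.24 for longer ones. The median log2 fold change in Rbbp4 OE against control moved the opposite way. It was 0.02 in the shortest class and -0.08, -0.18 and -0.18 in the longer ones. In Rbbp7 OE against control all 4 medians were between -0.02 and 0.002. Between Rbbp4 OE and Rbbp7 OE, where no control library enters the difference, the medians were 0.014, -0.081, -0.172 and -0.193. Tet1 (14369 nt), Tet3 (10904 nt), Dnmt3a (9685 nt) and Tet2 (9179 nt) have the longest transcripts of the set, and Dnmt3l (1822 nt) has the shortest. Dnmt3a was at 0.23 in Rbbp4 OE against control and, with a correction for length, at 0.43. Without Rbbp4 OE replicate 1 its log2 fold change was -0.02. The part of transcript length in the values of the members was not tested. With a correction for length the log2 fold change in Rbbp4 OE was -0.12 for Tet1, -0.17 for Tet2 and -0.52 for Tdg, none of them passing (limma adjusted p = 0.57, 0.383 and 0.0953). The correction turned Dnmt1 from -0.05 to 0.14 and Tet3 from -0.02 to 0.17.

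**Figure D4:**
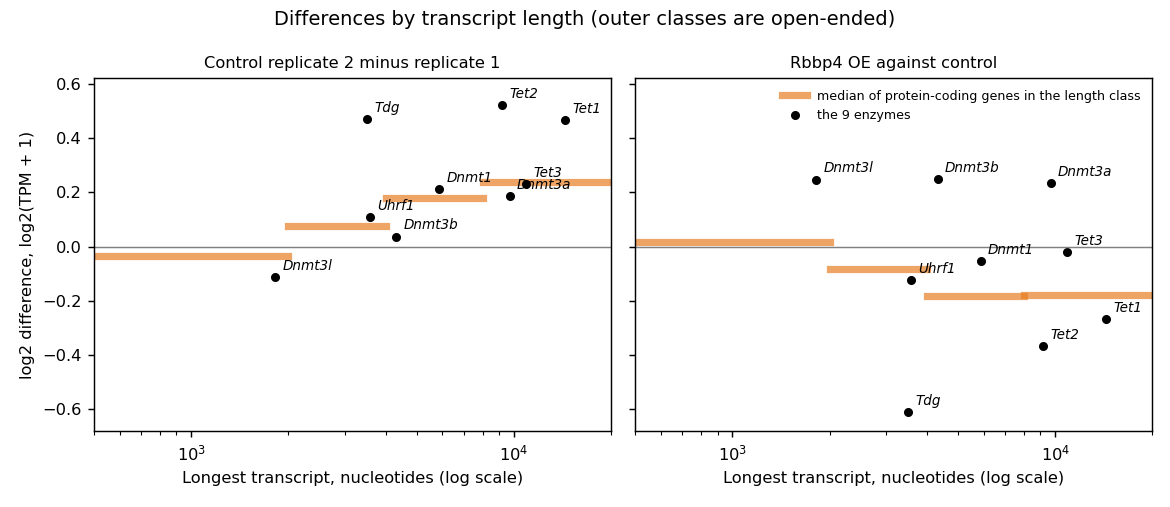
Left, log2 difference between the 2 control libraries, and right, log2 fold change in Rbbp4 OE against control, both against the longest transcript of each gene on a log axis; points are the 9 enzymes and bars are medians of protein-coding genes in 4 length classes. The medians rise from -0.04 to 0.24 on the left and go from 0.02 to -0.18 on the right, and Tet1, Tet2 and Tdg lie above the bars on the left and below them on the right.

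Between Rbbp4 OE and control, 5 of 9 members did not overlap (57.9% of all tested genes), 2 of them higher (20.8%) and 3 lower (37.1%). Between Rbbp7 OE and control there were 4 of 9 (44.5%), 3 higher (21.2%) and 1 lower (23.4%). Between the overexpression groups there were 7 of 9 (54.7%), 1 higher (16.1%) and 6 lower (38.6%).

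The pathway around the 9 enzymes was read from 6 further lists of 66 genes, 61 of them tested. The lists were chosen with earlier results of these data known, so shares among them are descriptions. Of the 61, 13 passed between Rbbp4 OE and control, with 4 higher and 9 lower in Rbbp4 OE. That is 21.3% of the tested list genes beside 11.4% of all genes (3.29% higher and 8.07% lower). These calls rest on the full set of libraries: 14 list genes passed without control replicate 1, and 0 passed in each of the other 5 limma fits that left out 1 library, in which 0.332% to 1.99% of all genes passed, although all 13 kept their sign. Without a filter on low genes 5 passed (Ahcy, Cdca7l, Gadd45a, Mat2a and Xrcc1, beside 2.87% of all genes). With a filter at a mean of at least 5 TPM, 5 of 47 list genes passed as higher and 13 as lower, beside 22.6% of all genes. Of the maintenance partners 4 of 8 fell and 0 rose (median log2 fold change -0.30), and of the cofactor genes 3 of 11 fell and 0 rose (median -0.39). With median-of-ratios scaling the maintenance partners had a median of -0.189 and 3 passing, and the cofactor genes -0.285 and 2 passing, where the median of all genes was 0.01. With the length correction these were -0.174 with 2 passing and -0.312 with 2 passing, against -0.01 over all genes. Of the recruitment and locus control genes 2 of 10 fell, of the methyl-CpG readers 1 of 7 rose, of the base excision repair and deaminase genes 2 of 16 rose, and of the germline genes 1 of 9 rose. In Rbbp7 OE against control Gadd45a alone of the 61 passed (1.64%, beside 0.487% of all genes), and 0 list genes passed by limma without a filter or in any fit that left out a library. In the direct comparison 0 of the 61 passed by limma.

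Among the partners of maintenance methylation, Cdca7l, a relative of the factor that binds the remodeller HELLS, had the largest decrease. Cdca7l was at 14.6 and 18.4 TPM in the control libraries, 8.56 and 7.74 TPM for Rbbp4 OE, and 9.81 and 10.6 TPM for Rbbp7 OE, and it fell by 0.93 on the log2 scale in Rbbp4 OE (SE 0.142, limma adjusted p = 0.0178, n = 2 per group). Uhrf2, the paralogue of Uhrf1, was at 12.6 and 14.8 TPM in the control libraries, 8.63 and 7.41 TPM for Rbbp4 OE, and 9.92 and 10.2 TPM for Rbbp7 OE, and it fell by 0.70 (SE 0.132, limma adjusted p = 0.0283, n = 2 per group). For both genes all 4 overexpression libraries were below both control libraries. Hells, a remodeller needed for methylation of repeats, fell by 0.39 (limma adjusted p = 0.0298), and Lig1, the ligase of replicating DNA, fell by 0.31 (limma adjusted p = 0.0386). The calls of Hells and Lig1 were lost with the length correction (limma adjusted p = 0.107 and 0.117), and that of Lig1 also with median-of-ratios scaling (limma adjusted p = 0.125).

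Of the genes that supply the methyl donor or a TET cofactor, Mat2a, Ahcy and Idh1 fell in Rbbp4 OE and the other 8 did not pass. Mat2a, which makes S-adenosylmethionine, was at 185 and 189 TPM in the control libraries, 125 and 136 TPM for Rbbp4 OE, and 167 and 156 TPM for Rbbp7 OE, and fell by 0.52 on the log2 scale in Rbbp4 OE (SE 0.065, limma adjusted p = 0.0115, n = 2 per group). Ahcy, which clears the by-product of methyl transfer, fell by 0.35 (limma adjusted p = 0.0231). Idh1, which makes the TET co-substrate oxoglutarate, fell by 0.41 (limma adjusted p = 0.0477), a call lost with median-of-ratios scaling (limma adjusted p = 0.0659) and with the length correction (limma adjusted p = 0.0504). Ctcf, which binds unmethylated sites at imprinted loci, was at 68.2 and 88.1 TPM in the control libraries, 50.3 and 46.8 TPM for Rbbp4 OE, and 60.9 and 67.6 TPM for Rbbp7 OE, and fell by 0.67 (SE 0.13, limma adjusted p = 0.0307, n = 2 per group). Trim28, the corepressor that protects methylation at imprints, fell by 0.17 (limma adjusted p = 0.0491), a call lost with the median-of-ratios scaling (limma adjusted p = 0.611) and with the length correction (limma adjusted p = 0.406).

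Single genes of repair and reading passed as higher in Rbbp4 OE against control, but their lists did not lean higher. The 16 tested repair and deaminase genes had 8 higher and 8 lower, with a median log2 fold change of 0.001. The 7 methyl-CpG readers had 2 higher and 5 lower, with a median of -0.146. Gadd45a, a stress-induced factor linked to demethylation through repair, was at 26.4 and 29.4 TPM in the control libraries, 41.1 and 43.7 TPM for Rbbp4 OE, and 46.6 and 50.4 TPM for Rbbp7 OE. Its 4 overexpression libraries were all above control, and it rose by 0.59 on the log2 scale in Rbbp4 OE (SE 0.089, limma adjusted p = 0.0171, n = 2 per group) and by 0.78 in Rbbp7 OE (SE 0.089, limma adjusted p = 0.037, n = 2 per group). The call in Rbbp7 OE was lost in each of the 6 fits that left out a library (limma adjusted p from 0.125 to 0.222) and without a filter on low genes (limma adjusted p = 0.0889). Xrcc1, a scaffold of base excision repair, was at 88.0 and 88.2 TPM in the control libraries, 120.4 and 112 TPM for Rbbp4 OE, and 103 and 95.3 TPM for Rbbp7 OE, and rose by 0.39 in Rbbp4 OE (limma adjusted p = 0.0228). Mbd3, a NuRD subunit of the methyl-CpG-binding family, rose by 0.24 in Rbbp4 OE (limma adjusted p = 0.0447). Sycp3, a meiotic chromosome gene whose promoter is usually methylated in somatic cells, was at 5.95 and 6.45 TPM in the control libraries, 11.2 and 10.7 TPM for Rbbp4 OE, and 6.14 and 7.55 TPM for Rbbp7 OE. It rose by 0.73 in Rbbp4 OE (SE 0.138, limma adjusted p = 0.029, n = 2 per group), the 1 germline gene of 9 to pass, and the difference between Rbbp4 OE and Rbbp7 OE was 0.61 (limma adjusted p = 0.125).

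**Figure D5:**
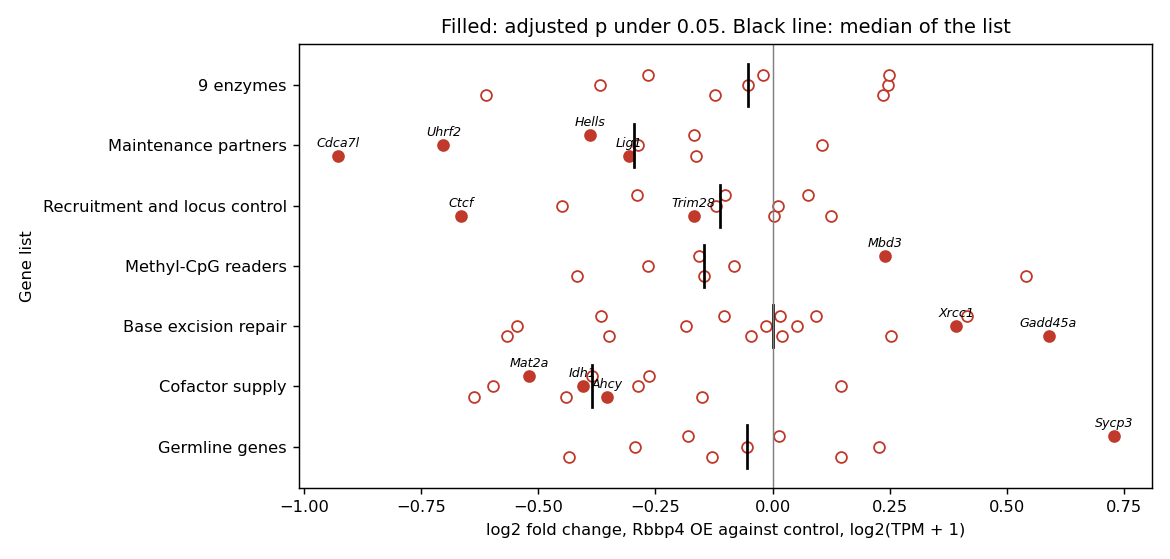
log2 fold change in Rbbp4 OE against control on the log2(TPM + 1) scale for the 9 enzymes and 6 lists of related genes; each circle is a gene, filled circles passed at an adjusted p under 0.05 by limma, and black lines are list medians. None of the 9 enzymes is filled, 4 of 8 maintenance partners are filled on the lower side, and the medians lie between -0.39 and 0.001.

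Tdg was the member, among those with a mean of at least 5 TPM, whose group means were farthest apart (0.61 log2 units). Of 8573 protein-coding genes at that level, Smad5, a transducer of BMP signals, was most like it over the 6 libraries (Pearson r = 0.998). Smad5 was at 5.29 and 7.85 TPM in the control libraries, 3.29 and 4.53 TPM for Rbbp4 OE, and 5.18 and 4.82 TPM for Rbbp7 OE. Gins3, a subunit of the replicative helicase (r = 0.995), and Cdca4, a cell division gene (r = 0.993), followed. The 6 points are the same libraries for every gene and include the same high control replicate 2, and the values are given as a description.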

How the data were processed

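Gene expression in 6 libraries of 46C mESCs was measured by poly(A) RNA-seq. The authors deposited 1 table of TPM values per library, made with Trim_galore, STAR and RSEM on mm10 and a GENCODE annotation. TPM keeps no depth, so depth is unknown and no counting interval is given. Whether counting used strand is not given in the sources used here. Groups came from the labels. Genes were matched to GENCODE M21 (GRCm38) by identifier without version, and 260 of 55401 had no match. The study used a count test. TPM are not counts, so limma-trend (limma 3.58.1, R 4.3.3) was run on log2(TPM + 1) for the 14156 genes with a mean of at least 0.5 TPM, with all 3 groups in 1 fit and 3 residual degrees of freedom, after it was tested on simulated data. Copies were found with blastn 2.17.0.

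The 9 members and all lists were chosen with earlier results of these data known. Named are the members, Rbbp4, Rbbp7, list genes passing in any comparison (at most 5 per list) and the 3 genes most like the member whose group means were farthest apart. Alternatives were other pseudocounts, filters and scaling, a replicate block, leaving out each library and, added after seeing the data, a length correction.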

Additional observations from a re-analysis of the deposited data

How the results depend on the processing

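The numbers of genes called or passing depended on the processing. In Rbbp4 OE against control the 73 called genes became 31 with a pseudocount of 5, 4 without a filter and 4 with the replicate block, and leaving out a library gave 0 to 40. The 1609 passing genes became 709 without a filter and 900 with the block, and 47 to 1574 when a library was left out. Median-of-ratios scaling moved the split of passing genes from 466 higher and 1143 lower to 716 and 712, and the median of all genes from -0.08 to 0.01. In Rbbp7 OE against control the 5 called genes became 2 without a filter, 8 at a mean of at least 5 TPM and 0 in each fit without a library. The 69 passing genes became 9 without a filter, 137 at a mean of at least 5 TPM, 36 with median-of-ratios scaling, 9 with the block and 2 to 53 when a library was left out. In Rbbp4 OE against Rbbp7 OE the 7 called genes became 4 without a filter and 0 to 42 without a library, and the 43 passing genes became 28 without a filter, 9 with the block, 21 with the length correction and 8 to 98 without a library. Fits without a library have fewer residual degrees of freedom.

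The count of members passing was 0 in all 3 comparisons and stayed 0 except in Rbbp4 OE against control, where it was 1 with median-of-ratios scaling and with the length correction (Dnmt3b in both), and 0 to 1 without a library (Tet2 without control replicate 1). Of 348 values of single members under an alternative, 22 changed sign, none of them past the threshold. In Rbbp4 OE against control these were Dnmt1 (0.055 with median-of-ratios scaling, 0.141 with the length correction, 0.054 without control replicate 2, and -0.158 to 0.054 over the fits without a library), Tet3 (0.029 and 0.166 with the same scaling and correction, and -0.137 to 0.094 without a library, being 0.094 without control replicate 2 and 0.048 without Rbbp4 OE replicate 2) and Dnmt3a (-0.019 without Rbbp4 OE replicate 1, and -0.019 to 0.489 over these fits). For Rbbp7 OE against control they were Tet1 (-0.0071 with the length correction, -0.213 to 0.252 without a library, negative without control replicate 1 and, at -0.106, without Rbbp7 OE replicate 2), Dnmt1 (-0.00072 to 0.211) and Uhrf1 (-0.026 to 0.082), both negative without control replicate 1, Tet2 (-0.318 to 0.205) and Tet3 (-0.142 to 0.13), which were 0.205 and 0.11 without control replicate 2, and Tet3 again without Rbbp7 OE replicate 2 (0.13). For Rbbp4 OE against Rbbp7 OE they were Tet3 (0.029 with median-of-ratios scaling, 0.181 with the length correction, -0.151 to 0.121 without a library, being 0.053 without Rbbp4 OE replicate 2 and 0.121 without Rbbp7 OE replicate 1), Dnmt1 (0.027 with the length correction) and Dnmt3a (-0.193 to 0.315, negative without Rbbp4 OE replicate 1). What made these small values turn was not tested.

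The replicate numbers are not known to pair the libraries. Same-numbered libraries did not deviate together (r = -0.03, 0.03 and -0.03 across genes for the 3 pairs of groups). These correlations do not settle whether such libraries were prepared together. With the replicate block, 7 of the 13 list genes passing in Rbbp4 OE still passed, 0 members did in any comparison, and the calls of Gm9855 in Rbbp4 OE (adjusted p = 0.0537) and Gadd45a in Rbbp7 OE (adjusted p = 0.0778) were lost. With 2 libraries a group, a difference smaller than the distance from its estimate to an end of its interval cannot be told from 0. Passing after adjustment can need a larger difference, as for Dnmt3b, Dnmt3l and Tdg in Rbbp4 OE. TPM keeps no depth, so the counting error behind Tet3 and the other low genes is unknown, and shares of reads between Tdg and its copies rest on the authors' estimates.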
